A study of Chenopodium quinoa with 15 samples.

Results

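The genes described here are titled as proteins of the cytosolic ribosome of quinoa (Chenopodium quinoa). They were chosen as every gene whose title, taken by the authors from matches to known proteins, holds the words 40S ribosomal protein, 60S ribosomal protein or 60S acidic ribosomal protein, and the rule used no expression value. It found 149 of the 58522 genes of the deposited table, 56 of the small (40S) and 93 of the large (60S) subunit, of which 6 have an acidic title. By their KEGG numbers, which mark genes of the same protein across species, they belong to 52 proteins, 23 of the 40S and 29 of the 60S subunit, apart from 2 genes that are titled L18a-like protein and have no number. Quinoa is an allotetraploid, so that most proteins have several gene copies. Here 9 proteins had 1 member and 43 had more, up to 8 for L13. The members lie on all 18 chromosomes. Another 102 genes carry the same KEGG numbers under titles that the words miss, such as hypothetical proteins, and their reads are given below where a result depends on them.

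The libraries were made from RNA of 4 organs of the variety NL-6, leaf, root, stamen and pistil, and from leaves after salt, with 3 replicate libraries per group and 15 in all. Leaves came from 14-day-old seedlings on soil that were untreated (water) or had been under a solution of 400 mM NaCl over 8 h. Roots were of seedlings given as 2 days old in the sample labels and as older in the paper, grown in the dark on medium in the paper, and stamens and pistils were taken from newly opened flowers of older plants. All plants were NL-6 with no genetic change, and each library pooled the organs of several plants, so that the tests measure the spread between such pools. Root therefore also differed from the other organs in age and light, which cannot be told apart from the organ. Stamen and pistil likewise differed from leaf and root in the age and stage of the plants, with the same limit.

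The cytosolic ribosome makes the proteins encoded in the nucleus. Its small subunit holds the mRNA and reads the codons, its large subunit joins the amino acids, and the acidic proteins form a stalk that brings in the elongation factors. Ribosomal protein genes are among the most actively transcribed genes of growing plant tissue, and the proteins are needed in like amounts because each ribosome takes a fixed set. Chloroplasts have their own ribosomes with other proteins (30S and 50S), which are no members.

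Counted reads per library ranged from 12499775 to 17019602. The labelled organs were checked against genes fixed by title words. The 52 genes of chlorophyll-binding and photosystem proteins, of which 15 were at 0 in leaf, summed to 51551 to 59582 counts per 1e6 scaled reads (CPM) in leaf and to at most 1105 in the other organs. The 21 genes with pollen in the title summed to 29736 to 31383 CPM in stamen and to at most 1226 elsewhere. The 21 root genes (Casparian strip, root hair and a peroxidase title) summed to 1972 to 2365 CPM in root and at most 24.6 elsewhere. The 11 genes with YABBY, CRABS CLAW or SPATULA in the title summed to 230 to 256 CPM in pistil and at most 30.9 elsewhere. No library went against its label.

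The members together took a share of the counted reads that was of like size in leaf, root and pistil, smaller after salt and far smaller in stamen. In the 3 leaf libraries the share was 2.18%, 1.89% and 1.65%, and in the NaCl leaves it was 0.654%, 0.715% and 0.865%. In root it was 2.56%, 2.33% and 1.98%, in stamen 0.0704%, 0.0853% and 0.0638%, and in pistil 1.59%, 1.53% and 1.80%. The NaCl and stamen libraries lay apart from each other and from the rest, whereas leaf overlapped with both root and pistil, and root lay above pistil. The mean share was 2.56 times as large in untreated as in NaCl leaves and 31.3 times as large in root as in stamen. The 102 other genes with the same KEGG numbers showed the same order, with mean shares of 1.23% in untreated and 0.538% in NaCl leaf, and of 1.43% in root, 1.09% in pistil and 0.0561% in stamen, so that the members held between 55.6% and 61.8% of the reads of their proteins in every library. The chloroplast-type ribosomal proteins were distributed otherwise, with 1.24% in untreated leaf, 0.870% after NaCl, 0.104% in pistil, 0.0309% in root and 0.00683% in stamen. As these are shares of bulk RNA, fewer cells that use the genes and less of their RNA per cell cannot be told apart.

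**Figure D1:**
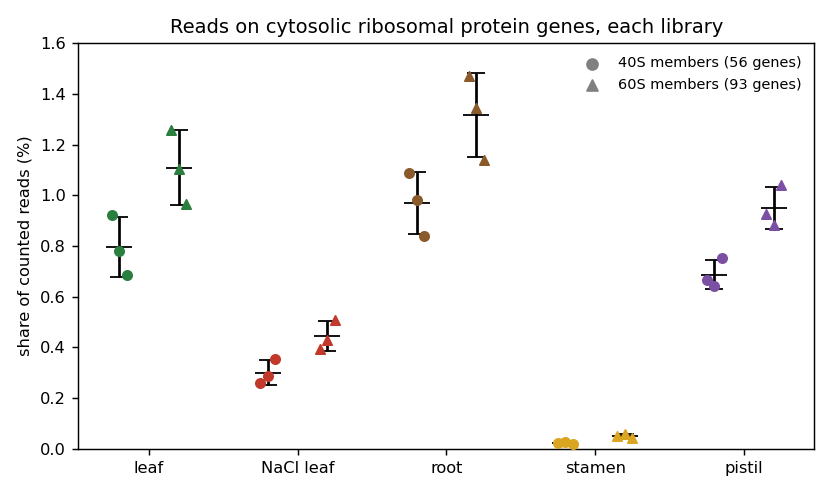
Share of the counted reads (%, vertical axis) that fell on the 56 40S genes (circles) and the 93 60S genes (triangles) in each of the 3 libraries of the 5 groups, with the mean and SD. Both subunits stood at the lowest share in stamen and at the second lowest in NaCl leaf, and the libraries of one group kept the same order for both subunits.

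Of the members, 6 had no read in any library, 7 had 1 to 15 reads in all, and 133 had at least 1 read in every library. Those with 15 reads or fewer were copies of S27, S3, S3a, S5, L13, L19, L35a and L8 that stand beside better expressed copies of the same protein or of the same KEGG number. Per length, as FPKM, the median member stood at 126 in leaf, 161 in root, 113 in pistil, 43.9 in NaCl leaf and 4.45 in stamen. FPKM divide by the library total, so that the order of the organs can differ from that by CPM. The highest was a copy of P2, one of the small acidic proteins of the stalk (CqNL-6_018533), with mean FPKM values of 1345 ± 138 (SD, n = 3) in untreated leaf and 461 ± 71.1 after NaCl, while root had 1285 ± 156, pistil 1089 ± 103 and stamen 75.8 ± 11.8. After it came a copy of S20 of the small subunit (CqNL-6_026262), with 738 ± 92.0 in leaf and 17.9 ± 6.95 in stamen, and a copy of L27a of the large subunit (CqNL-6_013037), with 494 ± 48.2 in leaf and 21.6 ± 4.95 in stamen. The levels in leaf and stamen did not overlap for any of these.

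After salt, nearly every member that could be tested was lower. Of 134 members with enough reads in the leaf libraries, 125 fell and 5 rose at an adjusted p under 0.05 (edgeR's quasi-likelihood test on counts scaled by TMM, adjusted over all 29201 genes tested), where 22.8% of all tested genes fell and 24% rose. The median log2 fold change of the members was -1.63 (all tested genes 0.04), that is, -1.65 for the 40S and -1.60 for the 60S members. A fall of at least 1 on the log2 scale was seen in 120 members (10.6% of all tested genes), and of at least 2 in 20 members (1.88%). In 126 members every NaCl library lay below every untreated library, which was so for 28.6% of all tested genes. With the total library size in place of TMM, 123 fell and 5 rose at a median of -1.39, while the median of all genes moved from 0.04 to 0.29. A change of scaling moves all genes by about the same amount. The distance of the members from all genes, -1.67 in both, is therefore no test of the scaling.

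The falls with the smallest p were in proteins of both subunits. L29, a small protein of the large subunit (CqNL-6_030865), had 103, 110 and 87.8 CPM in untreated leaves and 24.7, 27.6 and 26.5 CPM after NaCl, a log2 fold change of -1.94 ± 0.13 (SE, adjusted p = 3.3e-05). S29 of the small subunit (CqNL-6_006032) went from 26.3, 22.2 and 17.6 CPM to 2.40, 3.20 and 3.21 CPM, a log2 fold change of -2.90 ± 0.21 (adjusted p = 4.0e-05) and the deepest fall of the 134. Neither gene overlapped between the groups, and the same held for the others of the 6 with the smallest p, which were copies of L14 (CqNL-6_028475, -2.14), L35a (CqNL-6_032287, -1.86), S13 (CqNL-6_000013, -2.20) and L36a (CqNL-6_013823, -1.75). SA, a protein of the small subunit whose animal counterpart is also known as the laminin receptor, fell in both copies, 7.24-fold in CqNL-6_027943 and 4.30-fold in CqNL-6_000306. The first of these copies lies on chromosome 18 (13175271 to 13177499), next to a copy of S3 that had hardly any reads in leaf.

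In the stalk of the large subunit, the 4 copies of P2 all fell, by 1.59 to 2.51 on the log2 scale, the last for CqNL-6_049529 with 80.0, 74.0 and 61.7 CPM before and 8.51, 14.1 and 15.3 CPM after salt. For P0, which anchors the acidic proteins to the ribosome, the 2 members are minor genes that did not fall, while the 2 other genes of its KEGG number, which held most P0 reads, had fewer reads after salt (both given below). L3, a large protein that reaches the catalytic centre, was at 701, 581 and 510 CPM in untreated leaves and at 164, 198 and 262 CPM after salt in CqNL-6_009030, a log2 fold change of -1.52 ± 0.19 (adjusted p = 2.9e-04), and its other copy (CqNL-6_016998) fell by 1.35. S27a, which is made as a fusion with ubiquitin, fell by 1.97 in CqNL-6_014896, while CqNL-6_006336 went from 10.4, 12.2 and 9.32 CPM to 6.95, 6.83 and 6.42 CPM, a log2 fold change of -0.66 ± 0.16 (adjusted p = 0.0089) that did not pass with the total library size (-0.41, adjusted p = 0.069). P1, P3, L40, S6 and L10 had no member.

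**Figure D2:**
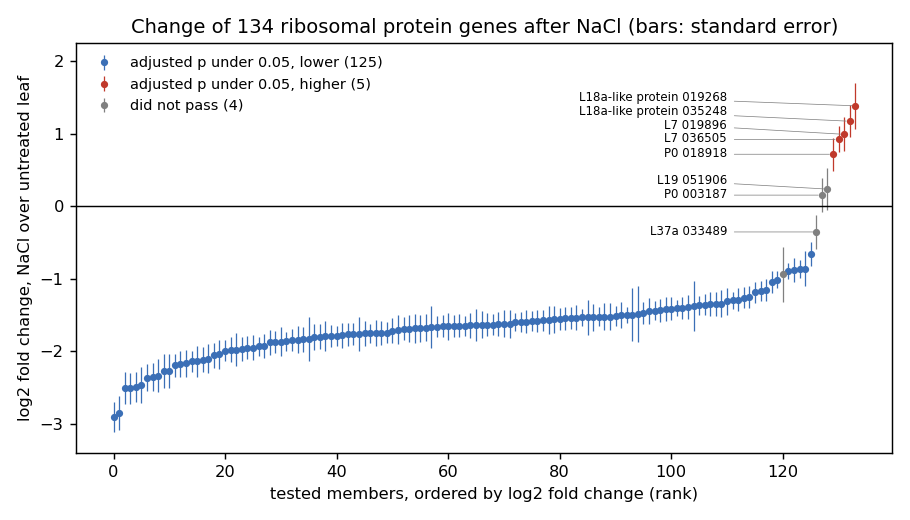
Log2 fold change of the 134 tested members in NaCl over untreated leaf (vertical axis, bars are standard errors), ordered from the deepest fall (-2.90) to the largest rise (1.39). The 125 members that fell are blue, the 5 that rose red and the 4 that did not pass grey, and labels give the protein and the last digits of the gene name.

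The 5 members that rose were 2 copies of L18a-like protein, 2 of L7 and 1 of P0. The L18a-like genes are members by their title alone, and whether they encode a protein of the ribosome was not tested. The L18a-like gene on chromosome 14 (CqNL-6_019268, 12693102 to 12696982) stood at 2.70, 4.10 and 4.24 CPM in untreated leaves and at 13.9, 5.98 and 9.11 CPM after NaCl, a log2 fold change of 1.39 ± 0.32 (adjusted p = 0.0059). The one on chromosome 8 (CqNL-6_035248, 68083979 to 68087983) stood at 3.62, 3.91 and 3.34 CPM and then at 9.35, 5.92 and 9.31 CPM (1.17 ± 0.22, adjusted p = 0.0025). In both, NaCl replicate 2 was the lowest of the treated libraries and still above all untreated ones.

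L7 is a protein of the large subunit that binds its rRNA. CqNL-6_019896 on chromosome 3 (3907584 to 3910000) went from 3.26, 4.29 and 5.21 CPM to 7.97, 7.01 and 10.6 CPM, a log2 fold change of 0.99 ± 0.23 (adjusted p = 0.0070). CqNL-6_036505 on chromosome 1 (59353190 to 59355663) went from 4.68, 3.97 and 5.40 CPM to 8.81, 9.49 and 8.39 CPM (0.92 ± 0.18, adjusted p = 0.0026). The groups did not overlap in either copy.

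The P0 copy on chromosome 13 (CqNL-6_018918, 10000016 to 10007817) had 2.84, 3.27 and 3.02 CPM in untreated and 4.56, 6.22 and 4.26 CPM in NaCl leaves, a log2 fold change of 0.72 ± 0.23 (adjusted p = 0.026). The groups did not overlap, but the call was near the threshold and was lost when some single libraries were left out. Without NaCl replicate 2 the log2 fold change was 0.53 (adjusted p = 0.094). Without untreated replicate 1, 2 or 3 it stayed at 0.67, 0.77 and 0.71, with adjusted p = 0.081, 0.060 and 0.075. The other P0 member, on chromosome 11 (CqNL-6_003187), had 13.7, 13.3 and 17.0 CPM before and 10.6, 17.5 and 20.8 CPM after salt and did not pass (0.15 ± 0.23, adjusted p = 0.61). Its groups overlapped, and its sign turned without NaCl replicate 3 (-0.080).

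Apart from that P0 copy, 3 tested members did not pass. A copy of L19 (CqNL-6_051906) had 3.48, 3.07 and 4.63 CPM in untreated and 5.52, 2.84 and 4.85 CPM in NaCl leaves (log2 fold change 0.24 ± 0.29, adjusted p = 0.53), while the other tested copies of L19 fell by 2.35 and 2.17. L37a, a zinc-binding protein of the large subunit with 1 member (CqNL-6_033489), had 4.97, 3.33 and 4.24 CPM before and 3.24, 2.96 and 3.60 CPM after salt (-0.35 ± 0.23, adjusted p = 0.23). A copy of S5 with few reads (CqNL-6_001422) was at 1.42, 1.67 and 1.22 CPM and then at 0.480, 0.786 and 0.983 CPM (-0.94 ± 0.38, adjusted p = 0.067). Only the last did not overlap between the groups.

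The members that rose were weakly read copies. Of the 117 tested members with a mean of at least 200 reads in the 6 leaf libraries, 116 fell, with a median log2 fold change of -1.65, and the other was the P0 copy that did not pass. Of the 17 with fewer reads, 9 fell and 5 rose, with a median of -0.86. For P0 the members held 802 of the reads of this KEGG number in the untreated leaf libraries, against 56744 on the 2 other genes, and after NaCl 1029 against 15563, so that the share of the members was 1.39% and then 6.20%. For L7 the members held 406 reads against 44379 on 5 other genes, and after NaCl 842 against 16882, or 0.91% and then 4.75%. For L37a the share was 1.68% and then 4.40%. The reads of the main genes of these proteins were thus fewer after salt, and the members that rose were a small part of each protein's reads in both groups. The L18a-like genes have no KEGG number, and the Gene Ontology term for ribosome structure, which 132 members carry, is not on them, on either P0 member or on CqNL-6_019896. The term does not separate the members that rose from the rest. It is on CqNL-6_036505, which rose, and is missing on members that fell, such as both copies of S10 and of S20 and the P2 copy CqNL-6_018533.

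Copies of one protein mostly fell alike. Among the 42 proteins with at least 2 tested copies, L18a-like protein included, the median distance between the highest and the lowest log2 fold change was 0.34. It was under 1 in 35. It was largest in L19 (2.59), S29 (2.04), L34 (1.38) and S27a (1.31). All tested copies fell in 46 of the 52 proteins with a tested copy, which include L18a-like protein and leave out S3, of which no copy was tested. With the reads of the member copies summed, 48 of 52 proteins fell, the sums of L7 and L18a-like protein rose, and those of L37a (-0.36, adjusted p = 0.23) and P0 (0.27, adjusted p = 0.29) did not pass. These sums leave out the other genes of each KEGG number, which for L7, P0 and L37a held most of the reads and had fewer after salt, so they do not describe these proteins as a whole. The same limit holds for some proteins whose summed members fell. In untreated leaf the members held 0.44% of the reads of L8, 0.83% of L18a, 1.34% of L13a and 22.1% of SA.

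Other genes of protein synthesis were taken in lists made by title words, and the median log2 fold change of each was closer to 0 than that of the members. Of the 52 tested chloroplast-type ribosomal proteins 49 fell, at a median of -0.76. Of 32 translation initiation factors 16 fell and 2 rose (median -0.59), of 12 elongation factors 8 fell and 1 rose (-0.44), of 21 ribosome biogenesis genes 13 fell (-0.60), and of 29 aminoacyl-tRNA synthetases 15 fell and 5 rose (-0.50). With the total library size, 43 of the chloroplast-type proteins fell (median -0.51), as did 15 initiation factors, 5 elongation factors, 11 biogenesis genes and 8 synthetases, while 4, 1, 2 and 6 of the last 4 lists rose. The other genes with the KEGG numbers of the members were closest to them, with 66 of 79 lower, 1 higher and a median of -1.38. Of the marker lists, 29 of 36 tested photosynthesis genes fell under TMM (median -0.45) but only 5 with the total library size (median -0.20). Of 25 tested genes of dividing cells (histones, cyclins, replication factors), 18 fell under either scaling. Under TMM 1 of them rose, and the median was -1.09. The summed level of this list was 1126 to 1226 CPM in untreated and 875 to 1062 CPM in NaCl leaves, with 9 and 10 of its 38 genes at 0. Their part in the fall of the members was not tested.

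Between the organs, the members divided stamen from the rest. Of 136 members tested over the 12 untreated libraries (35954 genes tested), 126 were higher and 6 lower in leaf than in stamen (41.6% and 38.4% of all genes), 125 higher and 6 lower in root than in stamen (43.2% and 38.3%), and 5 higher and 125 lower in stamen than in pistil (37% and 42.5%). The median log2 fold changes were 4.17, 3.69 and -2.97, while those of all genes were 0.06, 0.19 and -0.19. Scaled by the total library size instead, the numbers were 129 and 4 (53.1% and 28.5%), 130 and 4 (66.9% and 19.9%), and 2 and 133 (16.3% and 70.4%), at medians of 4.97, 5.15 and -4.83. All stamen libraries lay below all others in 123 members, which held for 26.4% of all tested genes. With a minimum log2 fold change of 1 against each other organ, 117 members were lowest in stamen (20.8% of all genes), 2 in root (6.02%) and 1 in leaf (6.47%), and with the total library size 126 were lowest in stamen (37.2%).

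The lowest in stamen by this rule was a copy of P2 (CqNL-6_020724), with 116, 98.2 and 100 CPM in leaf, 96.7, 89.3 and 79.2 in root, 54.5, 54.8 and 58.6 in pistil and 1.28, 1.47 and 0.839 in stamen. Its log2 fold change was 6.42 ± 0.19 in leaf over stamen (adjusted p = 7.7e-16) and -5.52 ± 0.19 in stamen over pistil (adjusted p = 1.8e-14). The stamen libraries stood far below all others, as they did for a copy of L6 of the large subunit (CqNL-6_009410), with 105 to 128 CPM in leaf and 1.68 to 3.67 in stamen. A copy of S5 (CqNL-6_007168), a protein of the head of the small subunit, had 28 to 35 reads in the leaf libraries, 38 to 52 in root, 32 to 57 in pistil and 0, 1 and 0 in stamen. L3 was also low, with 558 to 756 CPM in leaf, 450 to 575 in root, 242 to 296 in pistil and 17.5 to 24.3 in stamen for CqNL-6_009030.

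Elongation factors, which the stalk recruits, were lower in stamen as well (11 of 12 against leaf, 11 of 12 against root and 11 of 12 against pistil). The 39 tested initiation factors were divided, with 18 higher and 16 lower in root than in stamen under TMM and 25 and 10 with the total library size. Of 23 tested ribosome biogenesis genes, 15 were higher and 7 lower in leaf than in stamen under TMM. Their summed level went the other way, with 2245 to 2340 CPM in stamen and at most 683 in the other organs. Of 32 tested aminoacyl-tRNA synthetases, 21 were higher and 9 lower in leaf than in stamen under TMM. The summed level of the dividing-cell genes was 1871 to 1918 CPM in stamen. It lay at 2802 to 3229 CPM for pistil, 1228 to 1323 for leaf and 1582 to 1826 for root, with 6 to 9 of 38 at 0. Gene by gene, 21 of 28 tested were lower in stamen than in pistil. Although the sum was higher in stamen than in leaf, 18 of the 28 were higher and 7 lower in leaf than in stamen under TMM (median log2 fold change 2.41). Whether cell division or pollen content had a part in the low levels was not tested.

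**Figure D3:**
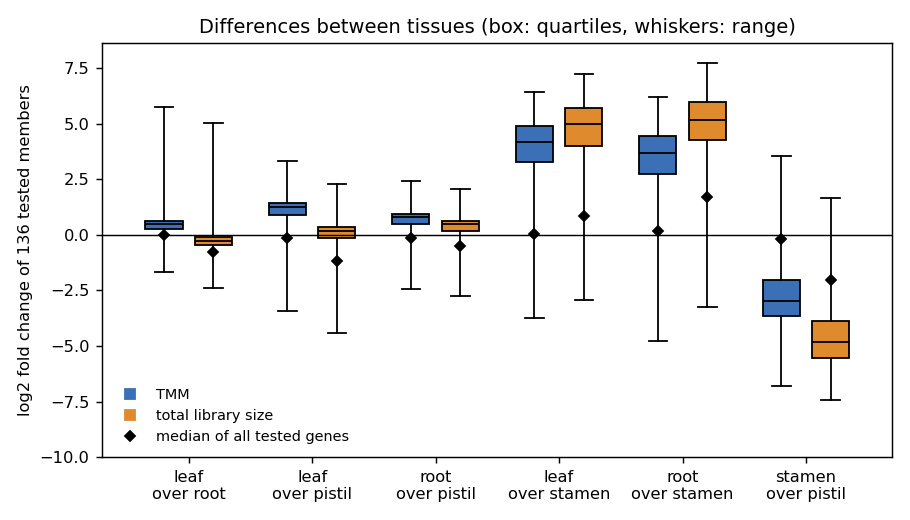
Log2 fold changes of the 136 tested members in the 6 pairs of organs (boxes are quartiles with the median, whiskers the range) under TMM scaling (blue) and the total library size (orange), with the median of all tested genes as a diamond. The boxes of the 3 pairs with stamen lie far from 0 under both scalings, while leaf over root has its median at 0.48 under TMM and at -0.26 under the total library size.

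Leaf, root and pistil differed less, and by an amount that depended on the scaling. Under TMM, 92 members were higher and 4 lower in leaf than in root (32.6% and 36% of all genes), 120 higher and 6 lower in leaf than in pistil (31.7% and 37.8%), and 112 higher and 12 lower in root than in pistil (33.8% and 40.9%), with medians of 0.48, 1.24 and 0.79. With the total library size, 4 were higher and 50 lower in leaf than in root (19.4% and 57.1%), at a median of -0.26, 42 higher and 25 lower in leaf than in pistil (15.8% and 67.4%), at 0.18, and 88 higher and 17 lower in root than in pistil (26.2% and 51.3%), at 0.47. The lowest TMM factors were those of stamen (0.477 to 0.494), followed by leaf (0.835 to 0.850), root (1.36 to 1.42) and pistil (1.73 to 1.78), and the change of scaling moved the median of all genes from -0.02 to -0.76 in leaf over root and from -0.14 to -1.20 in leaf over pistil. Relative to the median of all genes, the members stood 0.50 higher in leaf than in root, 1.38 higher in leaf than in pistil and 0.95 higher in root than in pistil. These distances hardly depend on the scaling by construction, as it moves all genes together.

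Few members were highest in one organ by the same minimum, 4 of them in stamen, 3 in leaf, 2 in root and 1 in pistil, where the rule called 20%, 11.1%, 10.4% and 6.03% of all genes. With the total library size the numbers in this order were 1, 1, 2 and 6, and the background 9.14%, 7.7%, 12.6% and 16.7%. The 3 of leaf were P0 (CqNL-6_003187), L35a (CqNL-6_032287) and S28 (CqNL-6_017676). The P0 copy had 14.8, 14.5 and 18.6 CPM in leaf, against 0.353, 0.212 and 0.310 for root, 1.43, 4.40 and 2.01 for stamen and 1.21, 2.03 and 1.50 for pistil, so that leaf lay above all others and root below, with a log2 fold change of 5.76 ± 0.34 in leaf over root (adjusted p = 2.7e-11). L35a (32.9 to 41.1 CPM in root, 84.2 to 89.5 in leaf) and S28, a small protein near the mRNA (31.0 to 33.2 CPM in root, 63.1 to 75.9 in leaf), were above the other organs by smaller amounts, and did not reach the minimum with the total library size.

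Both L18a-like genes were highest in root under either scaling. CqNL-6_019268 had 11.7, 12.2 and 14.3 CPM in root and at most 5.28 in any other untreated library, and CqNL-6_035248 had 8.97, 9.78 and 9.10 CPM in root and at most 4.26 elsewhere. The log2 fold change of leaf over root was -1.66 ± 0.21 (adjusted p = 1.4e-06) for the first and -1.23 ± 0.18 (adjusted p = 7.9e-06) for the second. The members with the largest rise after salt were thus also the ones called highest in root.

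Stamen, where most members were lowest, held the highest levels of L37a, both L7 members and the second P0 copy. L37a (CqNL-6_033489, chromosome 8, 23784475 to 23786799) had 55.5, 64.4 and 60.1 CPM in stamen, 13.8, 14.1 and 12.4 in pistil, and 3.63 to 5.36 in leaf and root, a log2 fold change of 2.16 ± 0.13 in stamen over pistil (adjusted p = 2.1e-11). P0 (CqNL-6_018918) had 18.4, 23.3 and 15.8 CPM in stamen, 3.06, 3.56 and 3.31 in leaf, 0.907, 0.508 and 0.672 in root and 2.20, 1.63 and 1.17 in pistil (3.52 ± 0.24 in stamen over pistil, adjusted p = 1.7e-10). Stamen was above and root below every other untreated library for this gene.

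The L7 copies stood at 30.9, 31.8 and 32.7 CPM (CqNL-6_036505) and at 21.5, 30.2 and 26.5 CPM (CqNL-6_019896) in stamen, and at 3.52 to 13.9 CPM in the other organs over both copies. With the total library size only the P0 copy stayed highest in stamen by the minimum, and stamen over pistil became 0.24 (adjusted p = 0.15) for CqNL-6_036505, 0.30 (adjusted p = 0.043) for L37a and -0.81 (adjusted p = 2.6e-04) for CqNL-6_019896. The median of all genes in stamen over pistil was -2.02 with the total library size, and relative to it these genes stood higher in stamen. A change of scaling hardly alters that distance, as it moves all genes together.

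**Figure D4:**
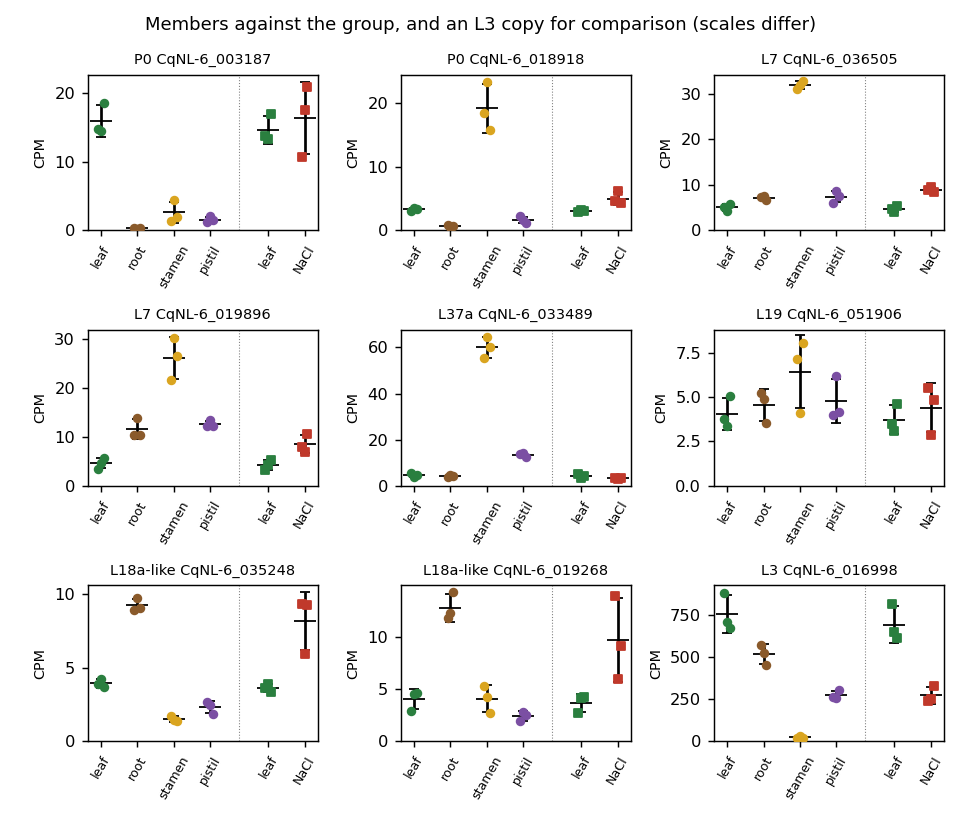
Levels in CPM (vertical axes, which differ in scale) of 8 members that went against the others and of an L3 copy, each point a library and bars the mean and SD of 3. Left of the dotted line are the untreated organs and right of it untreated and NaCl leaf, scaled within their own sets of libraries; L3 is near 0 in stamen, whereas both L7 copies, L37a and CqNL-6_018918 peak there.

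These stamen-high members were minor copies in the other organs and a larger part of their protein's reads in stamen. The L7 members took 0.91% of the reads of their KEGG number in leaf, 2.24% in root and 4.34% in pistil, and 52.6% in stamen (1144 reads against 1029 on 5 other genes). For L37a the share was 1.68% in leaf, 2.90% in root and 12.1% in pistil, and 47.0% in stamen (1186 against 1340 reads on 4 other genes). For P0 the share is of both members together, including CqNL-6_003187, which was highest in leaf. It was 1.39% in leaf, 0.09% in root and 0.54% in pistil, and 19.8% in stamen. In leaf, CqNL-6_003187 had 193, 207 and 264 reads and the stamen-high CqNL-6_018918 had 40, 51 and 47. In stamen they had 10, 30 and 12 against 129, 159 and 94.

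In pistil, a copy of S3 (CqNL-6_027944), whose protein lies at the mRNA entry of the small subunit, was the only member called highest. It had 15, 28 and 15 reads in pistil, 6, 1 and 4 in root, 1 in each leaf library and 0 in each stamen library, and lies on chromosome 18 at 13171055 to 13173239. It was a trace of the S3 reads, 58 in pistil against 30797 on 8 other genes of the KEGG number, and the other S3 members had 1 read and none over all 15 libraries.

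The balance between copies changed with the organ in part of the proteins. The count covered 42 proteins with at least 2 copies with reads and with member reads in every library, L18a-like protein left out. Of these, 18 had different leading copies among the 4 untreated organs, 4 had another one in NaCl leaf only, and 34 had the same leading copy in untreated and NaCl leaf. The leading copy was that with the largest mean share, by any margin. Some changes were thus small, as in L28 and L18, where no mean share moved by more than 5.85 and 5.44 points between groups. P0 changed most, as CqNL-6_003187 took 80.2% to 84.9% of the reads of its members in leaf and 7.19% to 15.9% in stamen. For S28 of the small subunit, CqNL-6_002932 took 50.5% to 54.5% in leaf, 43.4% to 50.2% in NaCl leaf and 77.0% to 81.3% in stamen.

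L14 of the large subunit had 4 copies with 20.1% to 28.4% each in leaf, and in stamen CqNL-6_043163 took 53.0%, 42.9% and 54.5%. For L38 of the large subunit, CqNL-6_015324 took 60.7% to 65.4% in leaf and 30.9% to 41.3% in stamen, where the other copy led. For L8, which lies near the catalytic centre, another member led in NaCl leaf than in the untreated organs, but its members had at most 89 reads in a library. In S28, L14 and L38 the stamen libraries did not overlap with any other library in the share of the copy named.

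**Figure D5:**
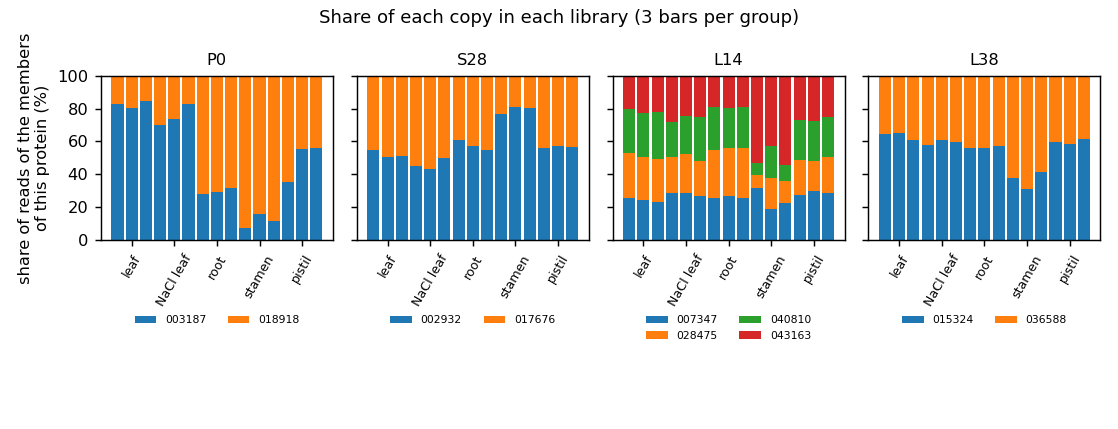
Share (%, vertical axis) of each gene copy in the reads of the members of P0, S28, L14 and L38, with 1 bar per library and 3 per group. The stamen bars differ from those of the other groups in all 4 proteins, and for P0 the copy CqNL-6_003187 goes from 80.2% to 84.9% in leaf to 7.19% to 15.9% in stamen.

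The sources used here do not say how reads with equal matches to several copies were counted, so that values of single copies of one protein are less certain than their sum.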

How the data were processed

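Reads were counted in 15 libraries, 3 each of leaf, NaCl leaf, root, stamen and pistil. Per the paper, the authors aligned cleaned reads with HISAT2 to the genome of NL-6 and counted them per gene by HTSeq (the submitters' notes give HISAT2 2.1.0), and the deposited counts are whole numbers without normalization. The authors also deposited FPKM, which divide each count by the gene length and the library total. They were used here for levels between genes and, without TMM scaling, for levels of members across the groups. For HTSeq, the version, the strand setting and how reads with several matches were treated were not given in the sources read here. Titles, KEGG numbers and coordinates came from the deposited table. Of the members, 0 matched the reference gene table, made for a different assembly, and no sequences are shown.

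Counts were filtered with filterByExpr, scaled by TMM and tested with the quasi-likelihood test of edgeR 4.0.16 in R 4.3.3, with Benjamini-Hochberg adjustment over all genes tested and a threshold of 0.05. The salt fit used the 6 leaf libraries and the organ fit the 12 untreated libraries. CPM come from the scaling of each fit, so that leaf values differ slightly between them. A member was called highest (or lowest) in an organ when it passed against each of the other 3 with a minimum log2 fold change of 1. The edgeR test with TMM was also run on simulated counts, for NaCl over untreated leaf and for stamen over pistil only. Alternatives were the total library size, DESeq2 1.42.0, all genes without the read filter, a salt fit over all 15 libraries, a replicate block, fits without single replicates, summed copies and, chosen after seeing the data, all genes with the members' KEGG numbers. Tables were handled with Python 3.11.15, pandas 2.3.3 and numpy 2.4.6.

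The members and lists were chosen with earlier results of these data known. Named members were the 6 with the smallest p among those that fell after NaCl and all that rose, up to 3 highest in each organ and 3 lowest in stamen, the 3 of the highest FPKM, up to 2 copies each of P0, P1, P2, P3, S27a, L40, S6, L10, SA, L3 and S3, the copies of the 5 proteins whose balance between copies changed most, and copies that went against the others. Other members given with values were chosen after their values were seen. Depth was 12499775 to 17019602 counted reads per library, and the number of replicates limits the precision.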

Additional observations from a re-analysis of the deposited data

How the results depend on the processing

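Shares here are of all 149 members unless stated. The fall after NaCl held under every alternative run, with 83.2% to 83.9% of members lower and 2.68% to 3.36% higher when single replicates were left out. With the total library size, 2.68% of members were higher and 33.6% lower in leaf than in root, 28.2% higher and 16.8% lower in leaf than in pistil, 2.68% lower in leaf and 2.68% lower in root than in stamen, and 1.34% higher in stamen than in pistil, and 0.671% were highest in leaf, 0.671% in stamen and 4.03% in pistil. The scaling factors given above move all genes together. With DESeq2's Wald test 2.68% were lower in leaf than in pistil. With member copies summed, 7.55% of proteins were lower in leaf than in pistil, 5.66% higher in stamen than in pistil, 0% highest in leaf and 1.89% highest in pistil. Over all genes with the members' KEGG numbers, chosen after seeing the data, 6.37% were lower in leaf than in stamen, 6.37% lower in root than in stamen and 6.37% higher in stamen than in pistil. Without the minimum fold, 59.1% were highest in leaf and 2.01% in pistil. Without the 100 most-read genes in the total, the members' mean share of reads was 2.54% in leaf, 0.955% in NaCl leaf, 0.100% in stamen and 1.79% in pistil. By FPKM the highest mean level was in leaf for 8.39%, in root for 72.0% and in pistil for 15.4% of members with reads, against 80.4%, 8.39% and 4.90% by CPM. Here CPM use the TMM factors and FPKM the library total. Leaving out 1 replicate moved the share lower in leaf than in stamen between 2.68% and 4.03%, and likewise between 2.68% and 4.03% in leaf against pistil. The log2 fold change of the P0 copy CqNL-6_003187 after NaCl, 0.15, ranged from -0.080 without NaCl replicate 3 to 0.38 without NaCl replicate 1. Apart from the scaling, the cause of these differences was not tested. Replicate numbers did not pair the samples, as same-numbered deviations correlated between -0.111 and 0.049, and with the replicate number as a block 83.9% of members fell and 3.36% rose after NaCl. Of 905 alternative values, 865 kept their direction and side of the threshold or stayed within the limits used.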
